A study of Mus musculus and Homo sapiens with 20 samples.

Results

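The NF-kB and cytokine feedback genes described here were 10 genes chosen by symbol: Socs3, Socs1, Cish, Nfkbia, Tnfaip3, Nfkb2, Relb, Tnf, Il1b and Il6. All 10 were found among 21911 protein-coding mouse genes (mm10) and, in upper case, among 20007 protein-coding human genes (hg38). CUT&Tag, in which an antibody directs a transposase to cut and tag the DNA beside a histone mark, mapped H2AK119ub (mono-ubiquitinated histone H2A) and H3K27me3 (trimethylated histone H3) in 20 libraries, with 2 per group. The mouse groups were WT and Tet2-KO mES cells (mouse embryonic stem cells, kept in serum with LIF, 3 µM CHIR99021 and 1 µM PD0325901) and WT and Tet2-KO HSPCs (haematopoietic stem and progenitor cells, here Lin- c-Kit+ marrow cells from mice aged 6 to 8 weeks), each profiled for both marks. The Tet2-KO mES line and mice were Tet2-/-, and the mice had been backcrossed to C57BL/6. K562 cells, a human leukaemia line, were nucleofected with siControl or siMBD6 and profiled for H2AK119ub only. The labels do not give the TET2 genotype of the K562 cells, and no source says whether the 2 libraries of a group came from separate animals or cultures. Each library was deposited as a list of peak positions, so the measure was the percent of a gene (its span, or the 2-kb window centred on its start) that lay under peaks.

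NF-kB is a family of dimeric transcription factors held in the cytoplasm by inhibitors until cytokines, microbial products or DNA damage release it. Cytokine receptors also signal through JAK kinases and STAT factors, and both pathways switch on their own brakes: Nfkbia encodes IkBa, which binds NF-kB, Tnfaip3 encodes the ubiquitin-editing enzyme A20, and Socs3, Socs1 and Cish encode SOCS-box proteins that curb JAK-STAT signalling. Nfkb2 and Relb encode subunits of the non-canonical NF-kB dimer, while Tnf, Il1b and Il6 encode inflammatory cytokines that act on blood progenitors. H2AK119ub is laid down by Polycomb repressive complex 1 and removed by the PR-DUB complex, to which MBD6 belongs, and H3K27me3 is laid down by Polycomb repressive complex 2.

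The promoters of the 5 genes that show the contrasts among the members best are given from RefSeq (GRCm38.p6), each on the strand of its gene, from 170 bases before the first transcribed base through the first 30 transcribed bases. They were Socs3 (chr11:117969337-117969536, minus strand), Cish (chr9:107296489-107296688, plus), Nfkbia (chr12:55492618-55492817, minus), Tnf (chr17:35201978-35202177, minus) and Il6 (chr5:30012944-30013143, plus). Capitals mark matches, on either strand, to the kB consensus bound by NF-kB or to the STAT motif, which is TTC, any 3 bases and GAA.
Socs3: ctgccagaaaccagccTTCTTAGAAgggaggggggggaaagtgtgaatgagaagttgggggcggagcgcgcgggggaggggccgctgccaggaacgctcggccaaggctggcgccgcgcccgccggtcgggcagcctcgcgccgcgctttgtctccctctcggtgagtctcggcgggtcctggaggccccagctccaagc
Cish: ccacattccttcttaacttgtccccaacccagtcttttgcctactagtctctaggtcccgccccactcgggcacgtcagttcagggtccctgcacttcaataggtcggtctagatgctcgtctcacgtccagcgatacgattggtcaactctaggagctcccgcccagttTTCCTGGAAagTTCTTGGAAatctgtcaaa
Nfkbia: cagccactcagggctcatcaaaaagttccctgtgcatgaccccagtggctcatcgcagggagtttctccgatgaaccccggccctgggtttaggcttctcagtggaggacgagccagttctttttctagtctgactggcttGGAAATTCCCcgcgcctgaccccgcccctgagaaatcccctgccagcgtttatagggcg
Tnf: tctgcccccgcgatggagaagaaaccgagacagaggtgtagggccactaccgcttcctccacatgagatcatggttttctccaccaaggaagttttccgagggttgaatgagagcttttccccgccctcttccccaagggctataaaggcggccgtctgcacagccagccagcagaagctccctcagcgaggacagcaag
Il6: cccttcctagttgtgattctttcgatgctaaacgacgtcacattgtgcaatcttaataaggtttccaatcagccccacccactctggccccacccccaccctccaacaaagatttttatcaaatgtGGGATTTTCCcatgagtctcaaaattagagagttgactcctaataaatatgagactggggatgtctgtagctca
In the longer RefSeq windows of 300 bases, the Socs3 promoter held 31 CpG, more than in 89.4% of 32851 mouse promoters, whereas the Il6 and Il1b promoters held 3 each and the median promoter 7. The STAT motif was found in 8.30% of all promoters. Socs3 and Nfkb2 held 1 copy each and Cish 2, of which the Cish copies began at the first transcribed base and 11 bases further on. The kB consensus was found in 8.46% of all promoters and, among the members, once in Nfkbia (29 to 20 bases before the start), once in Il6, and in promoters of Tnfaip3 and Nfkb2, with neither motif in the windows of Tnf, Socs1 and Il1b. A match is a description of the letters only, and the kB matches of Nfkb2 overlapped one another in part. No window was found for Relb.

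The lists held 85121 to 167378 peaks, which covered 132.1 to 259.9 Mb of the assembled chromosomes, and read depth is unknown. Between 30.4 and 41.4% of the peaks in a list were exactly 501 bp wide, and 1 such peak fills 25.1% of the window at a gene start. The lists of WT and Tet2-KO HSPCs differed on the X chromosome, which held 0.638 and 0.637% of the length covered by H3K27me3 in the WT libraries but 12.1 and 11.7% in the KO libraries, and 0.316 and 0.237% against 1.49 and 1.52% for H2AK119ub. In mES cells both genotypes held 0.406 to 1.23% there. No member lies on X, but genotype and whatever set the X chromosome apart cannot be told apart in HSPCs, and the labels give no sex per library. Promoter H3K27me3 differed between the cell types: 1 or 2 of 7 mES marker genes had a peak in each mES library (Esrrb in all 4, Zfp42 or Sox2 in a WT library each), whereas 5 of 7 had one in each HSPC library. The 8 HSPC markers had a mean H3K27me3 coverage of 67.6 to 72.1% at their starts in mES cells and 34.4 to 41.6% in HSPCs. The 6 markers of other blood cells averaged 4.17 to 16.6% in HSPCs and 16.7 to 33.8% in mES cells. For H2AK119ub, 7 of 8 HSPC markers had a promoter peak in each of the 8 mouse libraries (Ptprc had none), and 3 to 7 of the 7 mES markers and 2 to 5 of the 6 markers of other blood cells did. Peaks of histone marks do not measure Tet2 or MBD6 itself, so the knockout and knockdown were not checked here.

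The members had more of their length under peaks than the average gene had, in each of the 20 libraries, though gene length was not matched. At the starts, the first siMBD6 library of K562 cells was an exception, with a member mean of 18.4% against 19.9% over all genes. In WT mES cells, a mean of 59.4 and 60.8% of the 10 gene spans lay under H2AK119ub, against 25.0 and 24.5% over all genes, and in WT HSPCs 62.2 and 65.7% against 24.5 and 22.0%. In siControl K562 cells the same means were 19.7 and 18.8% against 13.9 and 14.0%. The members differed widely among themselves. Socs3 and Nfkb2 were covered end to end in each of the 8 mouse H2AK119ub libraries, Tnf in the 4 mES libraries and for 79.7 to 100% in HSPCs, and Socs1 and Cish for 68.9 to 100%. The cytokine genes Il1b and Il6 stood at the other end, with at most 24.6% of the gene covered in any mouse H2AK119ub library, and Relb, the longest mouse member, ran from 6.64 to 55.3%.

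Nfkbia had less H2AK119ub coverage in Tet2-KO than in WT cells of both types. Socs3 and Nfkb2 stood at 100% in both genotypes, the ceiling of the measure, where a change in the amount of the mark cannot be seen. In mES cells, H2AK119ub covered 73.6 and 51.8% of Nfkbia (chr12:55489410-55492647, minus strand) in WT against 34.7 and 44.8% in Tet2-KO libraries, a difference of -22.9 percentage points. In HSPCs the values were 54.4 and 100% in WT against 32.3 and 36.1% in Tet2-KO libraries, a difference of -43.0 points. The genotypes did not overlap in either cell type, and the second WT library of HSPCs was the only one that covered the whole gene. That library decided much of the size: without it the HSPC difference was -20.3 points, and without the first WT library -65.8 points. In mES cells the difference without the first WT library was -12.0 points.

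Peak by peak, a block of 2.79 kb crossed the Nfkbia start in the first mES WT library and one of 0.695 kb in the second, against 0.651 and 0.635 kb in the KO libraries. In HSPCs these blocks measured 0.990 and 7.19 kb in WT against 1.89 and 0.932 kb in KO libraries, so the block at the start itself was not shorter throughout. The 300-base promoter window with its kB match was fully covered in all 8 libraries. Part of the HSPC difference lay in 2 stretches inside the gene that were covered in both WT libraries and in neither KO library. They were 343 bp starting 933 bp downstream of the start and 201 bp starting 2194 bp downstream. In mES cells, all such stretches of at least 200 bp lay outside the gene. At the start of Nfkbia, coverage of the 2-kb window was 70.5 and 36.9% in WT against 32.5 and 31.8% in KO mES cells, and the difference of -21.5 points became -4.70 without the first WT library and -38.3 without the second. In HSPCs the same window held 52.9 and 100% in WT against 77.2 and 46.6% in KO libraries, which overlapped.

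**Figure D1:**
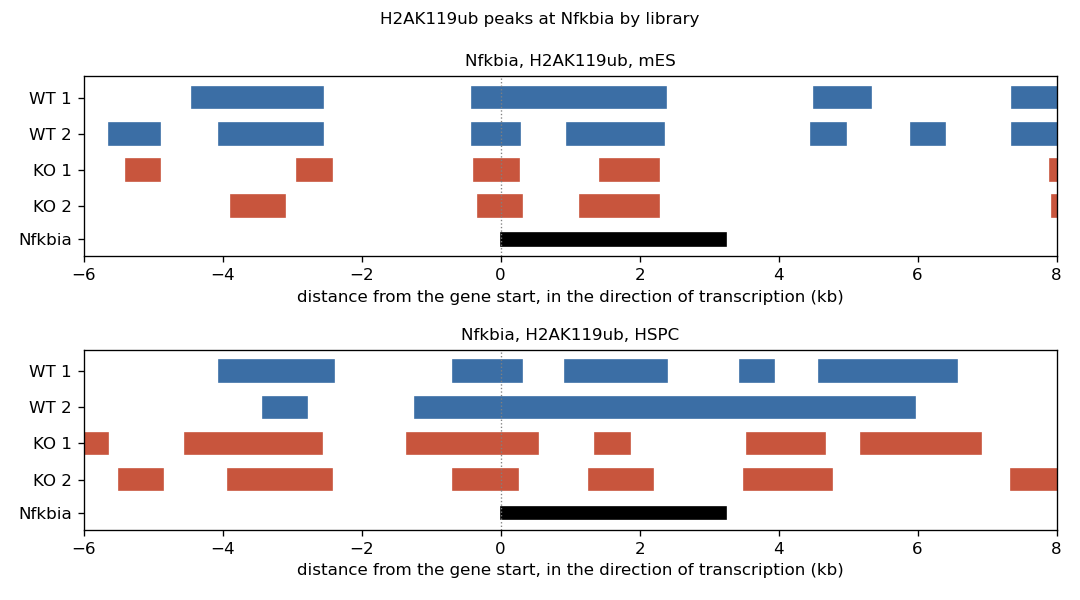
H2AK119ub peaks around Nfkbia, 1 row per library, with distance from the gene start in kb on the horizontal axis (WT blue, Tet2 KO red, the gene as a black bar). A peak lay over the start in all 8 libraries, and the second WT library of HSPCs had 1 block of 7.19 kb over the whole gene.

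Taking both cell types together, the mean Tet2 effect on Nfkbia coverage was -33.0 points, with p = 0.0556 in a two-sided exact permutation test, the smallest of its 36 arrangements. Adjusted over the 18599 genes tested, p was 0.853, 1212 genes reached the same smallest p, and 0 genes passed an adjusted threshold of 0.05. That 4 of 4 KO libraries lay below their own WT group restates the separation above. Earlier results of these data at Nfkbia were known, so the test is no independent evidence. Without the second WT library of HSPCs the effect was -21.6 points. The effects in the 2 cell types differed by -20.1 points (HSPC minus mES, exact permutation p = 0.667). For the window at the start the mean effect was -18.0 points (exact permutation p = 0.222, adjusted p = 0.997), and it ranged from -6.26 without the second HSPC WT library, through -9.64 without the first mES WT library and -10.4 without the second HSPC KO library, to -29.8 without the first HSPC WT library. For Socs3, at 100% of the gene in all 8 libraries, gene coverage did not vary and no test of it is given, and the effect at the start was -0.750 points. Over the 8 libraries, the genes whose values lay nearest to those of Nfkbia were Hist3h2a, Rapsn and Jmjd6, at mean absolute differences of 10.4, 10.8 and 11.0 points, and 268 genes had the same 100% as Socs3 in each library.

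Counted over the members, 2 of the 9 with any H2AK119ub in mES cells had lower gene coverage in both KO libraries than in both WT libraries, Nfkbia and Il6, and 0 had higher. The same was true of 19.2% of all covered genes for lower and 18.4% for higher, and the members' share of lower calls was near that background. Il6 had 1 peak of 501 bp near its start in 3 libraries (7.29 and 6.96% of the gene in WT, 0 and 6.86% in KO), and its difference of -3.70 points was -0.269 without the first KO library and -7.13 without the second. At the gene starts, 3 of 10 members were lower and 0 higher, against 12.0% and 13.7% of all genes. Besides Nfkbia they were Relb and Il1b. Relb had 40.1 and 78.2% in WT against 39.5 and 37.6% in KO, so that its -20.7 points became -1.62 without the second WT library and -39.7 without the first, and Il1b lost a single peak (6.55 and 6.80% to 0 and 0%).

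In HSPCs, 2 of 10 members had lower and 0 had higher H2AK119ub coverage of the gene in Tet2 KO, where 11.5% of all genes were lower and 23.3% higher. Relb joined Nfkbia there, with 53.6 and 55.3% in WT against 51.8 and 34.4% in KO. Its difference of -11.3 points was -2.65 without the second KO library and -20.0 without the first. At the starts 0 of 10 members separated in either direction, against 6.68% lower and 24.8% higher over all genes, and Socs3, Socs1, Nfkb2 and Tnf were at 100% there in all 4 libraries. Tnfaip3 at its start had 77.6 and 38.0% in WT against 97.5 and 77.5% in KO, the nearest of the members to an increase.

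**Figure D2:**
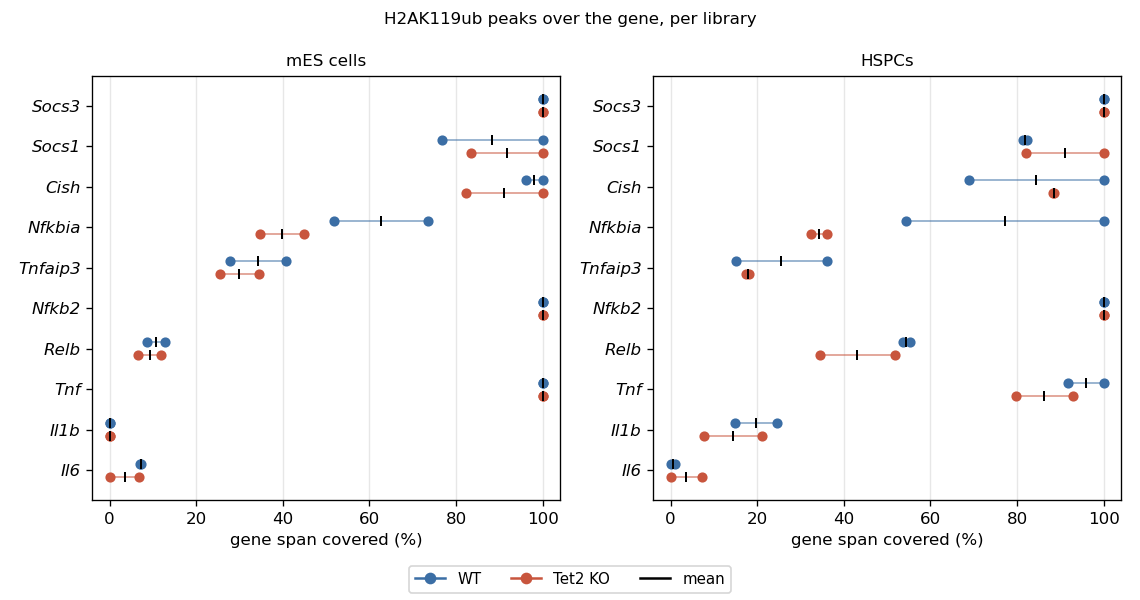
Percent of each gene covered by H2AK119ub peaks, 1 point per library (WT blue, Tet2 KO red, black ticks the mean of 2), in mES cells and HSPCs. Nfkbia is the member whose WT and KO points lie apart in both panels, while Socs3 and Nfkb2 sit at 100%, the ceiling of the measure.

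Single genes weigh on the mean over the 10 members, such as Nfkbia (-22.9 points in mES cells and -43.0 in HSPCs over the gene). The median difference over the members was -0.678 points in mES cells and -2.69 in HSPCs, against 0 and 0.507 over all covered genes. Gene coverage by H2AK119ub was 60.1 ± 1.03% in WT against 56.5 ± 2.14% in KO mES cells (SD, n = 2) and 63.9 ± 2.52% against 57.9 ± 2.00% in HSPCs (n = 2), and neither pair of groups overlapped. Scaled to equal genome coverage per library, the differences of -3.59 and -6.06 points became -1.06 and -13.6. This scaling multiplied the percents of each library by its own factor without a cap. Genes at the ceiling, such as Socs3 and Nfkb2, therefore moved with it, and the scaled means include that shift. At the starts the mean was 72.0 ± 1.62% in WT against 65.1 ± 1.96% in KO mES cells, but 72.5 ± 2.56% and 75.1 ± 9.12% in HSPCs, where the groups overlapped and scaling turned the sign of the difference (from 2.64 to -5.83 points). With 2 libraries against 2, an exact permutation test has 6 arrangements and cannot go below p = 0.333, so no p is given for a single comparison.

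H3K27me3 divided the members differently and by cell type. In mES cells Socs1, Nfkb2 and Tnf were covered over 100% of the gene in all 4 libraries, in blocks of 24.5 to 26.5 kb at Nfkb2 and 7.76 to 14.4 kb at Tnf. The Nfkb2 block also held the starts of Fbxl15 and Psd, and the WT block at Tnf those of Lta and Ltb, the neighbouring lymphotoxin genes. Socs3 and Nfkbia had no H3K27me3 peak over the gene in any mES library, and the peak nearest to the Socs3 start was 9867 to 19626 bp away. In HSPCs, by contrast, H3K27me3 covered the whole of Socs3 in all 4 libraries and 13.1 to 32.4% of Nfkbia. Il1b had none over the gene in either cell type.

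In mES cells the member with the largest H3K27me3 difference between genotypes was Cish (chr9:107296026-107302784, plus strand), a STAT5 target that damps cytokine receptor signalling. Coverage of its start window was 77.5 and 76.5% in WT against 36.6 and 22.2% in Tet2-KO libraries, a difference of -47.5 points, and over the gene 62.7 and 66.7% against 48.2 and 28.5%, a difference of -26.4 points (-16.6 without the second KO library). Both WT values lay above both KO values on each measure. In each WT library 1 peak of 3.90 kb crossed the start, whereas in the KO libraries the nearest peaks measured 1.36 and 0.501 kb and began 268 and 555 bp downstream. Covered in both WT libraries and in neither KO library were 798 bp around the start (-530 to 267 bp from it, chr9:107295496-107296293), 1225 bp inside the gene and 2 upstream stretches of 843 and 737 bp. The RefSeq promoter with its STAT motifs lies downstream of the GENCODE start used for the window, and it was covered for 100, 100, 100 and 42.7% in WT 1, WT 2, KO 1 and KO 2. H2AK119ub did not separate at Cish, with 100 and 96.2% of the gene in WT against 100 and 82.4% in KO mES cells.

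Tnfaip3 and Relb also had lower gene coverage in KO, with differences of -2.31 and -0.540 points. Tnfaip3 had 23.1 and 23.9% in WT against 20.9 and 21.5% in KO, and Relb 2.70 and 2.70% against 2.16 and 2.16%. The 3 of 6 covered members that were lower over the gene (0 higher) stood against 34.9% lower and 8.71% higher over all genes. At the starts Cish and Relb (31.4 and 31.3% in WT, 25.1 and 23.9% in KO) were lower and 0 members higher, of 7 covered, against 29.6% and 3.53% over all genes. The members' mean difference was -2.92 points over the gene and -6.01 at the start, and Cish (-26.4 and -47.5 points) weighed most on it. The median difference over the members was 0 on both measures, against -0.990 and -8.28 over all covered genes. Scaling libraries to equal genome coverage turned the mean differences to 3.32 and 1.13 points, and it also turned the sign for Tnfaip3 (1.57). Over the gene, Socs1, Nfkb2 and Tnf were at the ceiling in every library and moved under the uncapped scaling too. The reversed means therefore do not show a gain of the mark. Relb overlapped under that scaling on both measures, whereas Cish remained lower in KO. The second KO library covered 149.4 Mb, less than the other 3 (188.9 to 232.5 Mb).

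**Figure D3:**
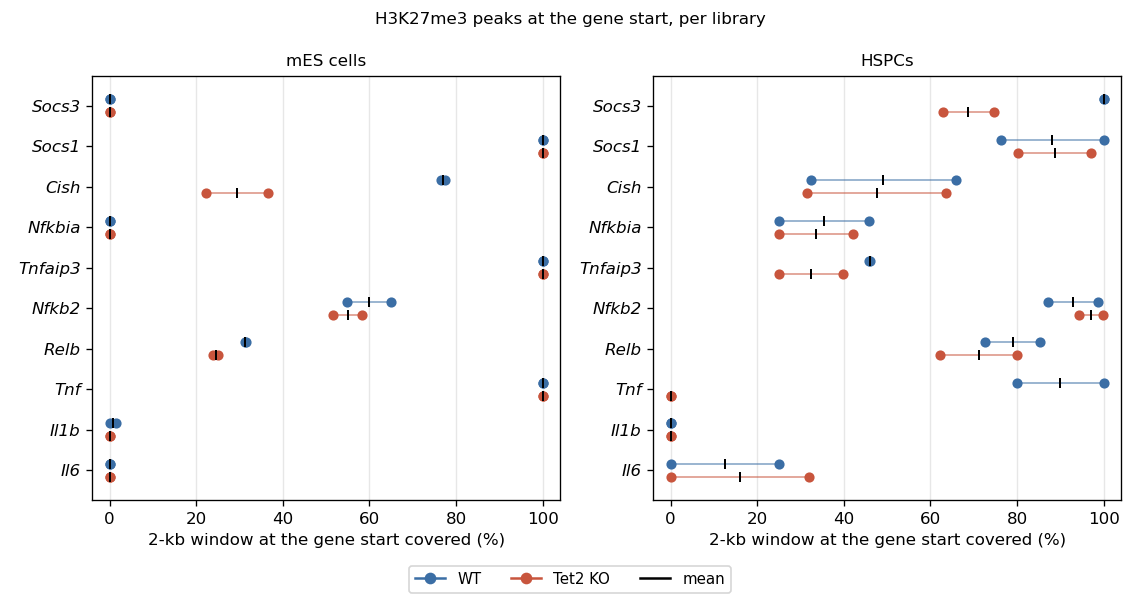
Percent of the 2-kb window at each gene start covered by H3K27me3 peaks, 1 point per library (WT blue, Tet2 KO red, black ticks the mean of 2). Cish and Relb points lie apart by genotype in the mES panel, and Tnf, Socs3 and Tnfaip3 points in the HSPC panel. A contrast between cell types was not tested.

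In HSPCs the member with the largest H3K27me3 difference was Tnf (chr17:35199381-35202007, minus strand), the founding cytokine of the TNF family. Its start window was covered for 80.0 and 100% in WT and for 0 and 0.05% in Tet2-KO libraries, a difference of -90.0 points. Over the gene the values were 71.1 and 83.7% in WT against 35.0 and 23.9% in KO, a difference of -47.9 points. WT and KO libraries lay far apart on both measures. Peaks of 2.47 and 4.05 kb crossed the Tnf start in WT, but in KO the nearest peaks began 1108 and 1000 bp downstream. The stretch covered in both WT libraries and in neither KO library ran from -600 to 999 bp relative to the start (chr17:35201008-35202607, 1600 bp), including the whole promoter printed above. Leaving out the sex chromosomes, H3K27me3 covered 164 and 166 Mb in WT and 177 and 163 Mb in KO HSPCs. H2AK119ub remained over the Tnf start at 100% in all 4 HSPC libraries, and in mES cells both marks covered the whole of Tnf in both genotypes.

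The neighbours of Tnf moved with it. Lta, 1157 bp away, was covered by H3K27me3 for 93.6 and 74.9% in WT against 11.9 and 12.0% in KO HSPCs, and Ltb, 3060 bp away, for 84.3 and 100% against 68.1 and 33.0%. These 3 genes lie in 1 cluster and cannot be taken as independent of each other. In HSPCs, unlike mES cells, the H3K27me3 peak over the Tnf start held no other gene start in both WT libraries. Both neighbours encode lymphotoxin chains, which signal through the TNF receptor family.

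At Socs3 (chr11:117966079-117970047, minus strand), the feedback inhibitor of gp130 and G-CSF receptor signalling, H3K27me3 covered the whole gene in all HSPC libraries, but the block was shorter in KO. It measured 9.66 and 9.12 kb in WT against 5.18 and 5.04 kb in KO libraries. Coverage of the start window was 100 and 100% in WT against 74.7 and 62.8% in KO, a difference of -31.3 points, with 848 bp upstream of the start (-1340 to -493 bp) covered in both WT and neither KO library. The promoter with its STAT motif, which lies inside the gene as GENCODE draws it, was covered in all 4 libraries. H2AK119ub at Socs3 in HSPCs ran in blocks of 11.8 and 19.6 kb in WT against 19.1 and 16.3 kb in KO, which overlapped.

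Nfkb2 (chr19:46304320-46312385, plus strand) kept H3K27me3 at its start but not throughout. Gene coverage was 100 and 100% in WT against 82.7 and 83.0% in KO HSPCs, a difference of -17.1 points. The block over the start spanned 27.7 and 30.1 kb in WT against 3.81 and 4.25 kb in KO, and 586 bp inside the gene, 3258 to 3843 bp from the start, were uncovered in both KO libraries. Past short gaps, the KO peaks resumed and ended 27907 and 28123 bp from the start, against 26986 and 29093 bp in WT. Where gaps of up to 1 kb were joined, the groups overlapped. Tnfaip3 at its start had 45.8 and 46.1% in WT against 39.7 and 25.1% in KO, and its difference of -13.6 points was -6.25 without the second KO library and -20.9 without the first.

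**Figure D4:**
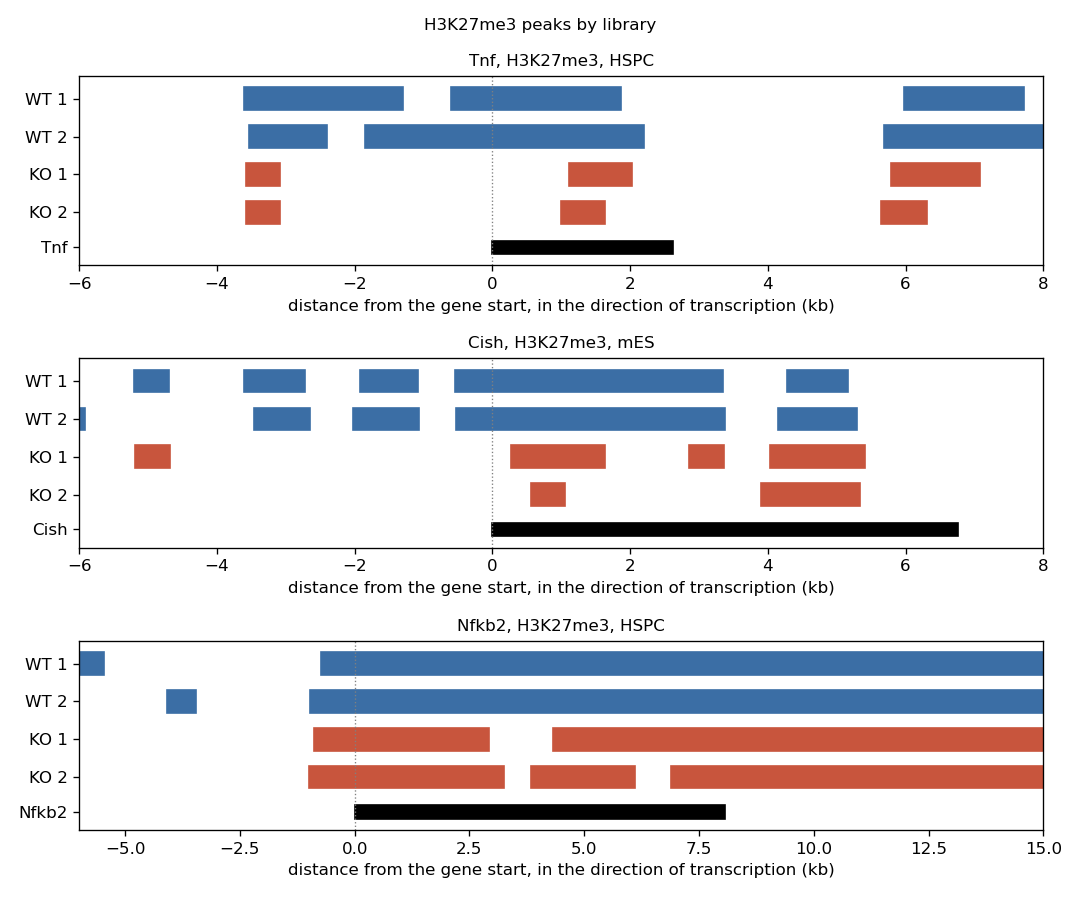
H3K27me3 peaks around Tnf and Nfkb2 in HSPCs and Cish in mES cells, 1 row per library, with distance from the gene start in kb on the horizontal axis (WT blue, Tet2 KO red, the gene as a black bar; peaks are drawn up to the edges of the panel). No KO peak crosses the start of Tnf or the GENCODE start of Cish, and the KO blocks over Nfkb2 are broken. The RefSeq promoter of Cish, which lies downstream of that start, was covered for 100 and 42.7% in the KO libraries.

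Counted over the members, 2 of 9 with H3K27me3 in HSPCs were lower over the gene in KO (Tnf and Nfkb2) and 0 higher, where 23.7% of all genes were lower and 19.2% higher (24.7% and 15.9% without the sex chromosomes). At the starts 3 of 9 were lower (Socs3, Tnfaip3 and Tnf) and 0 higher, against 12.4% and 13.6% (13.0% and 10.7% without the sex chromosomes). The mean over the 10 members was 42.3 ± 1.98% in WT against 35.1 ± 1.67% in KO over the gene and 59.3 ± 5.70% against 45.5 ± 5.17% at the start (SD, n = 2), without overlap. Scaling to equal coverage moved the differences of -7.19 and -13.8 points to -13.0 and -21.8, and scaling on the autosomes to -8.33 and -15.4. Tnf (-47.9 points over the gene and -90.0 at the start) weighed most on these means. The median difference over the members was -0.945 and -1.70 points, against -0.108 and 0 over all covered genes.

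Bases under both marks, counted where both libraries of a group had a peak, show the same genes. In WT mES cells Nfkb2 and Tnf carried both marks over 100% of the gene, while Socs3 carried H2AK119ub alone over 100%. In HSPCs Socs3 and Nfkb2 carried both over 100% in WT, and 100 and 73.0% in KO. For Tnf in HSPCs the share with both marks was 71.1% in WT and 19.8% in KO, and the share with H2AK119ub alone 20.6% and 59.8%. For Cish in mES cells these shares were 62.7% and 26.8% with both marks and 33.5% and 55.6% with H2AK119ub alone.

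In K562 cells, siMBD6 libraries covered 177.5 and 190.2 Mb with H2AK119ub and siControl libraries 132.2 and 132.1 Mb, and 3 of the 8 covered members had higher gene coverage in siMBD6, with 0 lower. Over all genes, 53.0% were higher and 1.95% lower, a larger share than among the members. The 3 were NFKB2 (55.6 and 57.3% in siControl, 83.4 and 70.1% in siMBD6, a difference of 20.3 points), RELB (15.2 and 12.0% against 18.7 and 21.3%, 6.44 points) and IL1B (27.9 and 14.2% against 28.4 and 61.4%, 23.8 points). NFKB2 and RELB encode subunits of the non-canonical NF-kB dimer, but with 53.0% of all genes higher, such a call singles out neither. Scaled to equal genome coverage, NFKB2 reversed to -1.28 points and RELB and IL1B overlapped (0.943 and 13.0 points). IL1B rested on the second siMBD6 library: its difference was 7.35 points without it and 40.3 without the first.

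At the gene starts in K562 cells IL1B was higher in siMBD6 (49.9 and 30.1% in siControl, 71.3 and 100% in siMBD6), and SOCS1 and RELB were lower, against 26.4% of all genes higher and 4.34% lower. SOCS1 had 50.6 and 2.35% in siControl and 0 and 0% in siMBD6, so its -26.5 points became -2.35 without the first siControl library and -50.6 without the second. RELB had 26.9 and 35.6% against 25.1 and 25.1%, and its -6.22 points became -1.85 without the second and -10.6 without the first siControl library. SOCS3 had the highest gene coverage of the members in 3 of the 4 libraries, with 69.0 and 79.1% in siControl and 69.8 and 78.0% in siMBD6, and the groups overlapped. NFKBIA had no peak over the gene or its start window in any of the 4 libraries. TNF (chr6:31575565-31578336, plus strand) had none either, but it lay within a stretch of 3.59 to 4.99 Mb of chromosome 6 that held 156 to 183 protein-coding genes and no peak, while 5 to 10 peaks per list lay on alternate sequences of chromosome 6. Its 0 is therefore shared by that whole stretch, and whether reads could be placed there was not tested.

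**Figure D5:**
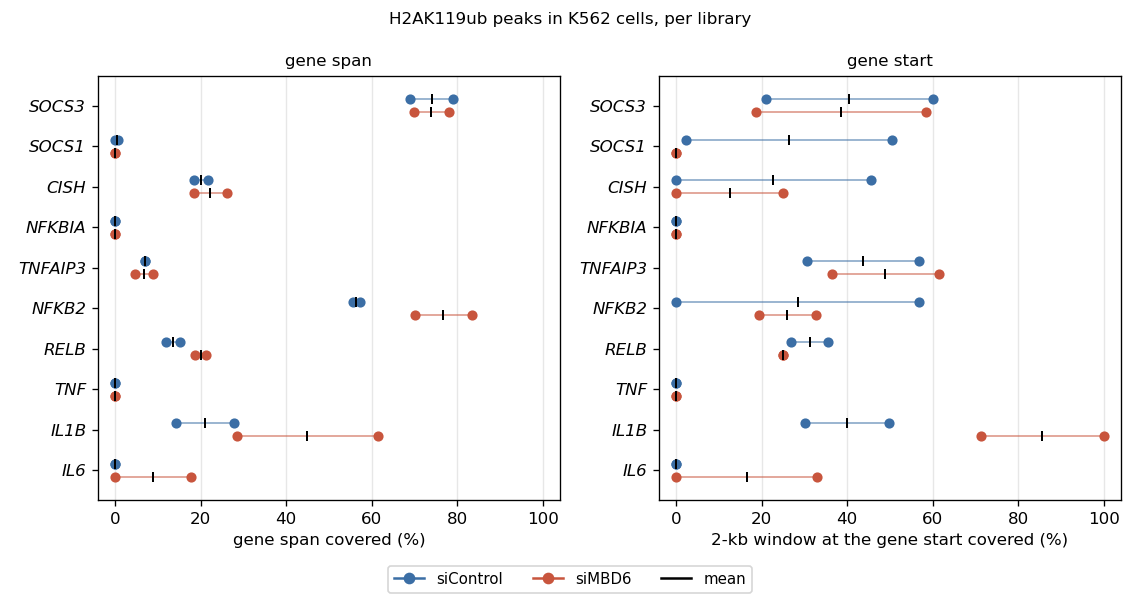
Percent of each gene and of the 2-kb window at its start covered by H2AK119ub peaks in K562 cells, 1 point per library (siControl blue, siMBD6 red, black ticks the mean of 2). NFKB2, RELB and IL1B are higher in both siMBD6 libraries over the gene, a direction that reverses for NFKB2 when libraries are scaled to equal coverage.

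The mean over the members in K562 cells was 19.3 ± 0.637% in siControl and 25.3 ± 3.16% in siMBD6 over the gene (SD, n = 2), which did not overlap. Over all genes it was 13.9 and 14.0% in siControl and 17.3 and 18.3% in siMBD6. The median difference over the members was 1.07 points over the gene and -1.01 at the start, against 3.37 and 8.45 over all covered genes. The members' mean difference of 6.07 points was 3.84 without the second siMBD6 library and -1.31 when scaled. At the starts the means were 23.3 ± 1.22% and 25.3 ± 9.77% and overlapped.

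The other genes of the 2 pathways came from a list of 54, which held NF-kB subunits, IkB proteins, IKK kinases, TRAF adaptors, receptors, cytokines, JAKs, STATs and SOCS genes. In mES cells, 7 of 52 covered genes were lower and 10 higher in H2AK119ub over the gene after Tet2 loss (19.2% and 18.4% over all genes), and 16 of 45 were lower and 4 higher in H3K27me3 (34.9% and 8.71%), so that the share with lower H3K27me3 was near the background. For H2AK119ub the largest increase was in Nfkbib, which encodes IkBb (43.3 and 39.4% in WT, 58.4 and 61.2% in KO), and the largest decrease in the IL-6 receptor gene Il6ra (31.4 and 26.8% against 21.2 and 19.6%). For H3K27me3 the largest decrease was in the TNF receptor gene Tnfrsf1a (100 and 100% against 77.1 and 45.2%) and the largest increase in Socs5 (4.69 and 6.77% against 23.3 and 19.2%). In HSPCs, 13 of 54 were lower and 4 higher in H2AK119ub (11.5% and 23.3% over all genes) and 18 of 50 lower and 4 higher in H3K27me3 (23.7% and 19.2%). Pim1, a kinase gene induced by STAT5, led the H2AK119ub decreases (69.2 and 71.0% in WT, 50.1 and 46.9% in KO), Il10 the increases (17.2 and 9.77% against 36.9 and 29.1%), and Lta the decreases of H3K27me3. The largest H3K27me3 increase was in Ikbkg (0 and 1.04% in WT, 43.1 and 45.2% in KO), which encodes the IKK scaffold NEMO and lies on the X chromosome. In K562 cells 0 of 39 genes were lower and 22 higher, near the 1.95% and 53.0% of all genes. The largest difference was in RELA, the canonical NF-kB subunit (10.6 and 10.6% in siControl, 34.4 and 46.6% in siMBD6).

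At the starts, the same list gave 3 lower and 7 higher of 51 for H2AK119ub (12.0% and 13.7% over all genes) and 15 lower and 1 higher of 42 for H3K27me3 (29.6% and 3.53%) in mES cells. In HSPCs it gave 4 lower and 12 higher of 52 (6.68% and 24.8%) and 9 lower and 4 higher of 43 (12.4% and 13.6%), and in K562 cells 2 lower and 12 higher of 31 (4.34% and 26.4%). These counts describe the list, and its difference from all genes was not tested. Jak2 (100 and 100% in WT, 68.5 and 61.5% in KO) had the largest H3K27me3 decrease at a start in mES cells. Stat5b, one of the STAT genes acting on Cish and Socs3, had the largest H2AK119ub increase at a start in HSPCs (46.2 and 31.2% in WT, 100 and 82.4% in KO).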

How the data were processed

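CUT&Tag peak positions of 20 libraries in 10 groups were analysed. The authors trimmed reads with Trimmomatic 0.39 and aligned them with Bowtie2 2.4.1 to mm10 or hg38 with a Drosophila spike-in; their methods name MACS2 broad peaks, whereas the processing notes name HOMER 4.9. The deposited lists, 1 per library, hold no scores, counts or spike-in scaling. Members and lists were chosen with earlier results of these data known. Peaks on assembled chromosomes were merged (Python 3.11.15, numpy 2.4.6), and the percent of each protein-coding gene (GENCODE vM21 or v44) and of its start ± 1 kb under peaks was computed. A gene was called lower or higher where both treated libraries lay outside both controls. The Tet2 effect over both cell types was tested by a two-sided exact permutation test with Benjamini-Hochberg adjustment over all genes. All members are named, plus up to 3 pathway genes per comparison, measure and direction by size of difference. Covered lengths were checked against a base-by-base count on a deposited list, and the calls on copies of that list with peaks removed. Alternatives changed peak size, gaps, list length, scaling, windows, pairing and libraries. The check of K562 cells against cell type markers is not reported here.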

Additional observations from a re-analysis of the deposited data

How the results depend on the processing

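There were 23 separations of single members from both control libraries. Of these, 21 held when lists were cut to equal length and 21 when gaps of up to 1 kb were joined. In wider windows (2 kb added at each end of the gene, starts taken ± 2 kb) 19 held. After scaling to equal genome coverage 15 held, and 12 with peaks of at least 1 kb, where the other 11 overlapped. Scaling reversed Tnfaip3 H3K27me3 (1.57 points) and NFKB2 (-1.28) over the gene. Leaving out a library cannot end a separation, by construction. The 10 means kept their direction except as follows. Scaling had no cap, so members at the ceiling moved under it and the scaled means include that shift. Scaling reversed the H3K27me3 mean in mES cells (3.32 points over the gene, 1.13 at the start) and the K562 mean over the gene (-1.31), and moved the mES H2AK119ub means to -1.06 and -3.97, those of HSPCs to -13.6 and -5.83, the HSPC H3K27me3 means to -13.0 and -21.8 and the K562 start mean to -6.31. The H2AK119ub start means of HSPCs and K562 cells, whose groups overlapped, changed sign there and also, in HSPCs, to -2.38 in wider windows and -3.81 without the first KO library, and in K562 cells to -0.480 with lists of equal length and -4.91 without the second siMBD6 library. Joining gaps moved the mES start means to -4.67 (H2AK119ub) and -8.31 (H3K27me3). Wider windows moved the mES H3K27me3 means to -4.02 and -8.44, the HSPC H3K27me3 gene mean to -9.10 and the K562 gene mean to 3.44, and peaks of at least 1 kb moved the HSPC H3K27me3 gene mean to -10.2. These causes were not tested.

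Counts of separated members fell to 1 with peaks of at least 1 kb for both mES marks on both measures and for the HSPC H2AK119ub and K562 genes, to 1 under scaling for the mES H2AK119ub gene and both mES H3K27me3 measures, to 1 on joining gaps for the HSPC H3K27me3 gene, and to 1 in wider windows for the K562 start. Counts rose from 2 to 4 for the HSPC H3K27me3 gene under scaling and in wider windows, and from 0 at the HSPC H2AK119ub start to 1 on joining and 2 in wider windows. Without 1 library, the counts over the gene and at the start ran from 3 to 4 and 4 to 5 for mES H2AK119ub, 3 to 6 and 1 to 4 for HSPC H2AK119ub, 3 to 6 and 3 to 7 for HSPC H3K27me3, and 4 to 6 and 4 to 6 for K562.

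Replicate numbers are shared by the groups but no source ties them to animals or days, and deviations of same-numbered libraries correlated over genes at -0.0863 to 0.0386, except for H3K27me3 over the gene in mES cells (-0.245). With the replicate block, 4 members moved the same way in both pairs for mES H2AK119ub over the gene, 4 for HSPC H2AK119ub over the gene and 1 at the start, 5 for HSPC H3K27me3 at the start and 5 for K562 at the start, and the block changed no other count by over 1.5 times. With the pairing of H3K27me3 in mES cells crossed, an alternative chosen after seeing the data, 3 members moved the same way over the gene, as without it. Scaling HSPC H3K27me3 on the autosomes, also chosen after seeing the data, left the 5 separations of single members in place.

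The lists hold no read counts, so depth is unknown. With 2 libraries a group an exact permutation test of a single comparison cannot go below p = 0.333, and p-values measure only the spread between libraries, which nothing ties to separate animals or cultures.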
